A study of Mus musculus with 3 samples.

Results

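This account covers 10 genes of lymphocyte quiescence and trafficking: the Krüppel-like factors Klf2, Klf3, Klf6, Klf10 and Klf13, the sphingosine 1-phosphate receptors S1pr1 and S1pr4, the forkhead factors Foxo1 and Foxo3, and the antiproliferative gene Btg2. They were found by exact symbol in a table of 23348 usable genes, each has a line of its own, and all 10 were among the 12849 genes counted as measured, which means 1 FPKM or more in at least 1 library. FPKM is the number of sequenced fragments divided by transcript length and by the number mapped in that library, so that levels can be compared between genes per length. The RNA came from thymic DN1 cells, sorted as lineage-negative, CD44-positive and CD25-negative from mice aged 19 days of strain 129sv/C3H. The groups were wild type mice (1 library, cells of 2 mice), grey-lethal gl/gl mice, which are Ostm1-/- (1 library, cells of 3 mice), and Transgenic CD2-Ostm1 gl/gl mice, which are gl/gl mice carrying an Ostm1 transgene named for CD2 (1 library, cells of 3 mice; called the transgenic library below). All 3 groups shared the strain, the age and the sorting gate, and no group carried the transgene on a wild type background.

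Krüppel-like factors are zinc finger proteins that bind GC-rich and CACCC elements, and KLF2 is known for keeping naive T cells quiescent and for switching on S1pr1. S1PR1 senses sphingosine 1-phosphate, a lipid that is abundant in blood and scarce in tissue, and mature thymocytes use this gradient to leave the thymus. FOXO factors are held out of the nucleus by PI3K and AKT signalling; when that signalling is low they switch on cell cycle inhibitors and, in T cells, homing genes that include Klf2, Ccr7 and Il7r. BTG proteins bind deadenylases of the CCR4-NOT complex and shorten the life of mRNAs. In the thymus, KLF2 and S1PR1 are known from the last maturation steps, whereas the DN1 gate holds the earliest progenitors.

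The 250 bases before the annotated start are shown for Klf2, Klf6 and Klf13, those of the 5 KLF genes that lay furthest apart between the gl/gl and the transgenic library (RefSeq, GRCm38.p6, each 5′ to 3′ on its own gene's strand). Capitals mark CACCC on either strand (read as GGGTG on the other strand), the element that KLF proteins recognise, and a match to the MEF2 motif, which was found in Klf2 after its sequence was seen. The Klf2 window lies at chr8:72318812-72319061 on the plus strand, that of Klf6 at chr13:5861239-5861488 on the plus strand, and that of Klf13 at chr7:63938916-63939165 on the minus strand.
Klf2: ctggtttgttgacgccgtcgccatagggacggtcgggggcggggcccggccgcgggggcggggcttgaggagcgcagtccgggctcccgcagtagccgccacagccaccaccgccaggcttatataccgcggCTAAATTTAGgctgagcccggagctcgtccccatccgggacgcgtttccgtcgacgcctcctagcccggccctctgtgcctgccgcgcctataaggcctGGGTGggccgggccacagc
Klf6: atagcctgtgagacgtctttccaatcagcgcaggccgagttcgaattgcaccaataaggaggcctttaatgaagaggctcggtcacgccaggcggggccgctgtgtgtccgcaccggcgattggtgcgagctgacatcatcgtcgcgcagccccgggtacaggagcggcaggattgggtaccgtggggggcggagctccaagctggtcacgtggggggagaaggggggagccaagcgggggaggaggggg
Klf13: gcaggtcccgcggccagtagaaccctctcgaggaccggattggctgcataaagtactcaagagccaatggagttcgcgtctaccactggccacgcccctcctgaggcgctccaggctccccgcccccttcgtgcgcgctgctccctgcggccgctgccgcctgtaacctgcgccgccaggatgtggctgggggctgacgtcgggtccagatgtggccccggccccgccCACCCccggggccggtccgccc

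Promoter windows were matched by symbol for 8 of the 10 genes, all but S1pr1 and Klf10, and the 5 of them not printed above (Klf3, S1pr4, Foxo1, Foxo3 and Btg2) are given by their counts. CACCC stood in 4 of the 8, once each in Klf2, Klf13 and S1pr4 and 5 times in Klf3, beside 52.0% of all 32851 promoter windows of the same length. GGGCGG, the GC box, stood in 7 of the 8 on either strand, with S1pr4 as the exception, beside 32.7% of all windows. The FOXO motif GTAAACA stood in none of the 8, beside 3.17% of all windows. Klf2 alone among the 8 held the MEF2 motif, 118 bases before its start, where 0.508% of all windows hold it; MEF2 factors are known to act on the Klf2 promoter in endothelial cells. Motifs were counted separately and matches were allowed to overlap. The share of G and C was 38.8% in S1pr4 and 56.0% to 78.4% in the 7 others, beside a median of 52.4% over all windows.

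Before the values, the libraries themselves need a description. Ostm1 was listed at 0 in gl/gl, beside 19.6 FPKM in the wild type and 5.35 in the transgenic library, as the labelled genotypes would have it. In the order wild type, gl/gl and transgenic, used for all triplets of values below, Xist had 116, 0.184 and 235 FPKM and the Y-linked Eif2s3y 0.0338, 59.8 and 0.0395 FPKM. Sex-linked transcripts thus set the gl/gl library apart from both others. In the comparisons that involve gl/gl, sex and genotype cannot be told apart. The 10 genes all lie on autosomes. Cd44, a marker of the gate, had 66.4, 109 and 64.7 FPKM. Il2ra, which encodes CD25 and should be low, had 5.94, 11.7 and 4.03 FPKM. Lineage transcripts were present despite the lineage-negative gate, and Cd3e, for example, had 77.3, 107 and 57.7 FPKM. By a rough estimate from the spacing of the lowest values, each of the 10 genes rested on 1590 to 15450 fragments per library, so counting error was small. There was 1 library per genotype, so the differences have no replicate check, and no test of the genotypes was made. In a mixed pool, a change in the share of cells and a change in RNA per cell cannot be told apart.

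Across these genes the gl/gl library held the higher values, and the other libraries lay within 1.5-fold of each other for each of the 10. Of the 10 genes, 9 had their highest value in gl/gl and 1, Foxo3, had its lowest there. Among all measured genes 39.3% were highest in gl/gl and 43.4% lowest there, which together make 82.7%, so an outermost gl/gl value was usual in these data, and the 10 genes were mostly on the higher side. The summed level of the 10 genes was 365 FPKM in the wild type library, 619 in gl/gl and 350 in the transgenic library. The genes were well expressed in every library: the lowest of them stood above 60.0% of the measured genes in the wild type library, 72.2% in gl/gl and 66.1% in the transgenic library.

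**Figure D1:**
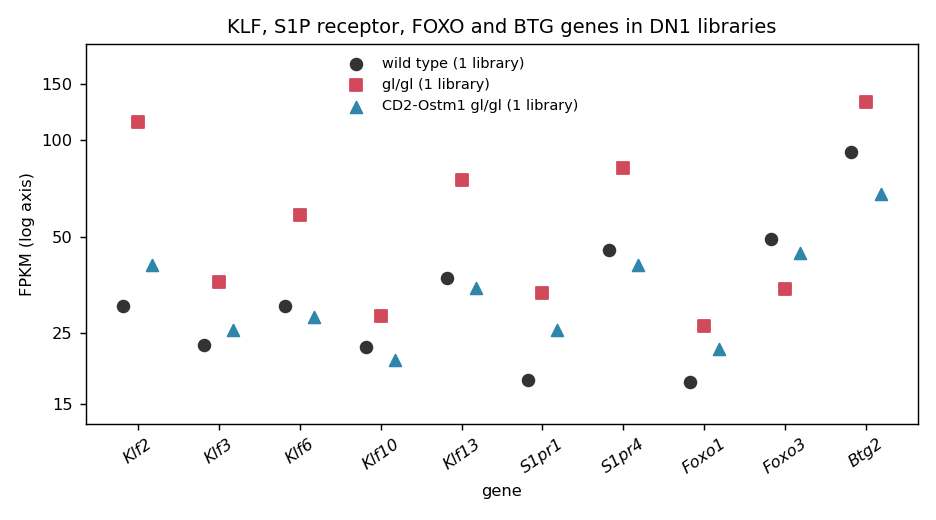
FPKM (log axis) of the 10 genes, 1 point per library (circles, wild type; squares, gl/gl; triangles, CD2-Ostm1 gl/gl). The square is the highest point for 9 genes and the lowest for Foxo3, and Klf2 has the widest gap, 30.2 FPKM in wild type and 114 in gl/gl.

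Klf2 showed the widest difference of the 10. Klf2 (chromosome 8, 72319062 to 72321654, mm10, plus strand) had 30.2 FPKM in the wild type library, 114 in gl/gl and 40.6 in the transgenic library. The gl/gl library was far above both others, and the transgenic library lay a little above wild type. The gl/gl value was 3.79 times that of wild type (95% interval 3.61 to 3.97, counting error only, on a normal approximation to the estimated fragments), a log2 difference of 1.89 on the scale of log2(FPKM + 1), which is used for all log2 values here and understates differences of low genes. Of all measured genes, 2.69% had a higher log2 difference. The transgenic value was 0.355 times that of gl/gl (0.337 to 0.374) and 1.34 times that of wild type (1.26 to 1.43). Within the 5 KLF genes, whose levels per length can be compared, Klf2 made up 21.1% of the summed FPKM in the wild type library, 36.7% in gl/gl and 27.2% in the transgenic library. A share inside a library does not depend on how libraries were scaled to each other.

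Klf6 and Klf13 were also high in gl/gl, by a smaller factor, and lowest in the transgenic library. Klf13 (chromosome 7, 63886351 to 63938915, minus strand), a factor known in T cells for activating the chemokine gene Ccl5, had 37.1 FPKM in the wild type library, 74.9 in gl/gl and 34.4 in the transgenic library. The wild type and transgenic values were near each other and both far under gl/gl. Its gl/gl value was 2.02 times that of wild type (1.97 to 2.07, counting error only), a log2 difference of 0.99 that sits just under the 2-fold line on this scale. Klf6 (chromosome 13, 5861489 to 5870393, plus strand), a factor with known roles in myeloid cells, had 30.4 FPKM in the wild type library, 58.4 in gl/gl and 28.1 in the transgenic library. The picture was again 1 high library, gl/gl, with a log2 difference of 0.92 against wild type and -1.03 for the transgenic library against gl/gl. The ratio of Klf6 to Klf13 was almost level, at 0.819, 0.781 and 0.816 in the 3 libraries, while that of Klf2 to Klf13 was 0.815, 1.53 and 1.18.

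The remaining KLF genes of the group differed less. Klf3 (chromosome 5, 64803523 to 64830129, plus strand), a repressor that works with CtBP proteins, had 22.9 FPKM in the wild type library, 36.0 in gl/gl and 25.6 in the transgenic library. Its wild type and transgenic values were close, and the log2 difference of gl/gl from wild type was 0.63. Klf10 (chromosome 15, 38294413 to 38300707, minus strand), a gene induced by TGF-beta, had 22.5, 28.1 and 20.6 FPKM. It had the narrowest range of the 10 genes, with a highest value 1.37 times its lowest.

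The sphingosine 1-phosphate receptors were both highest in gl/gl but differed in the transgenic library. S1pr1 (chromosome 3, 115710433 to 115715055, minus strand), the egress receptor, had 17.9 FPKM in the wild type library, 33.2 in gl/gl and 25.5 in the transgenic library. Here the transgenic library lay between the others, 1.43 times wild type (1.35 to 1.52, counting error only) and 0.770 times gl/gl. Its log2 difference from wild type, 0.49, was the highest of the 10 genes in that comparison, and 7.32% of measured genes had a higher one. S1pr4 (chromosome 10, 81497745 to 81500137, minus strand), a receptor of lymphoid and other blood cells, had 45.4 FPKM in the wild type library, 81.8 in gl/gl and 40.7 in the transgenic library. The transgenic and wild type values of S1pr4 were close, and the log2 differences were 0.84 for gl/gl against wild type and -0.99 for the transgenic library against gl/gl. The ratio of S1pr4 to S1pr1 was therefore 2.54 in wild type and 2.47 in gl/gl but 1.59 in the transgenic library.

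Foxo1 and Foxo3 went in opposite directions. Foxo1 (chromosome 3, 52268337 to 52350109, plus strand), the main FOXO factor of T cell homing, had 17.6 FPKM in the wild type library, 26.2 in gl/gl and 22.2 in the transgenic library. Like S1pr1, it was in between in the transgenic library, at 1.26 times wild type (1.22 to 1.31, counting error only). Foxo3 (chromosome 10, 42185786 to 42276742, minus strand), a related factor that is known to promote quiescence and cell death, had 49.2 FPKM in the wild type library, 34.3 in gl/gl and 44.3 in the transgenic library. It was the 1 gene of the 10 that was lower in gl/gl than in wild type, 0.697 times (0.678 to 0.718), with a log2 difference of -0.51 and 80.5% of measured genes higher on that scale. Foxo3 had 2.79 times the FPKM of Foxo1 in wild type, 1.31 times in gl/gl and 1.99 times in the transgenic library. Foxo3 thus remained the more abundant of the pair per length in each library, by a narrower margin in gl/gl.

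Btg2 (chromosome 1, 134074865 to 134079155, minus strand), which binds CCR4-NOT deadenylases and restrains division, was the highest of the 10 in every library. It had 92.2 FPKM in the wild type library, 132 in gl/gl and 67.9 in the transgenic library. Its values were spread over all 3 libraries, with the transgenic library lowest at 0.736 times wild type (0.711 to 0.762, counting error only). Its log2 difference between these libraries, -0.44, was the lowest of the 10 genes in that comparison, and 92.2% of measured genes had a higher one.

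The order of the genes by level was not the same in the 3 libraries. Behind Btg2, wild type had Foxo3, S1pr4 and Klf13, whereas gl/gl had Klf2, S1pr4 and Klf13, and the transgenic library had Foxo3, S1pr4 and Klf2. Klf2 went from rank 6 in wild type to rank 2 in gl/gl and rank 4 in the transgenic library, and Foxo3 from rank 2 to ranks 7 and 2. With 1 library per genotype, neighbours in this order, such as Klf2 and Klf6 in wild type at 30.2 and 30.4 FPKM, cannot be said to differ.

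Read against all measured genes, the counts at 2-fold were small. In gl/gl against wild type 1 of the 10 genes, Klf2, was at least 2-fold higher and none lower, beside shares of 8.16% higher and 6.15% lower among the 12849 measured genes, so the count was near the background. The shift lay below that line: 9 of 10 were higher by any amount, where 47.5% of measured genes were, and 6 of 10 were at least 1.5-fold higher (Klf2, Klf13, Klf6, S1pr1, S1pr4 and Klf3), where 16.3% were. The median log2 difference of the 10 was 0.73, beside -0.03 over all measured genes. In CD2-Ostm1 gl/gl against wild type none of the 10 reached 2-fold, beside shares of 1.34% higher and 1.67% lower among measured genes, and none reached 1.5-fold either, where 9.49% did in either direction. The 10 genes had a median of -0.11 there, beside -0.04 over all genes, with 4 higher and 6 lower by any amount, where 44.6% and 55.2% of measured genes were. In CD2-Ostm1 gl/gl against gl/gl 3 of 10, Klf2, Klf13 and Klf6, were at least 2-fold lower and none higher, where 9.82% were lower and 6.47% higher, while 5 of 10 were at least 1.5-fold lower (18.8%) and 9 of 10 lower by any amount (48.2%), and the median was -0.71 beside 0.025 over all genes. These comparisons share libraries, so they are not independent of each other.

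**Figure D2:**
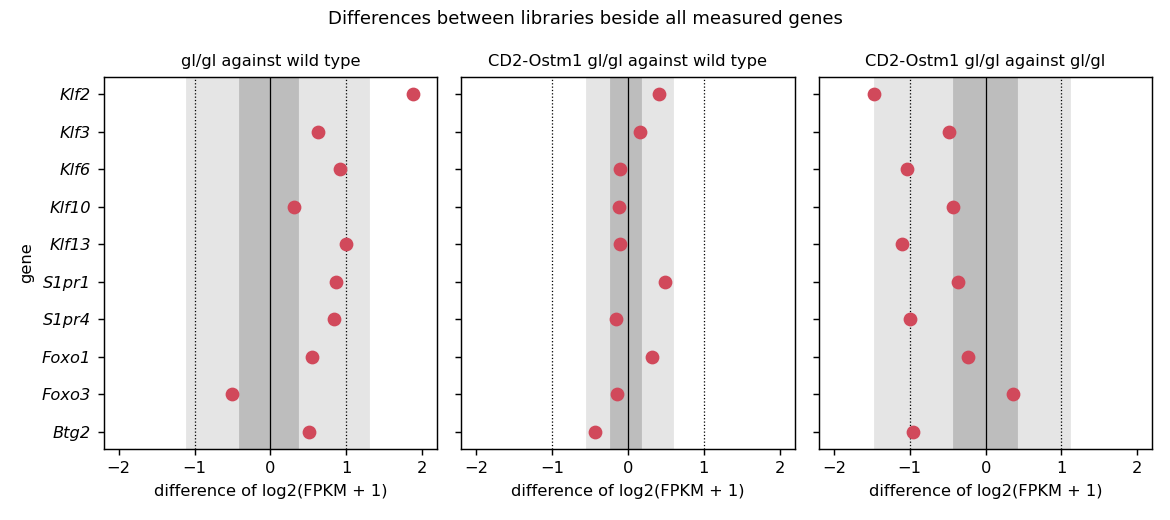
Differences of log2(FPKM + 1) for the 10 genes (points) in the 3 comparisons; the pale band holds the central 90% and the dark band the central 50% of 12849 measured genes, and dotted lines mark 2-fold. In the first panel Klf2 at 1.89 lies outside the pale band and Foxo3 at -0.51 is the 1 point left of 0; in the middle panel every point lies inside the pale band.

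The other KLF genes were expressed at lower levels, and several of them differed by 2-fold or more between gl/gl and wild type. The KLF genes numbered up to Klf17 gave 17 lines in the table, and 14 of them were measured. The 5 KLF genes described above held 79.7% of the summed KLF FPKM in the wild type library, 83.1% in gl/gl and 81.3% in the transgenic library. Of the 9 others that were measured, 4 reached 2-fold higher in gl/gl than in wild type and 1 reached it lower. Among these, Klf5, Klf15 and Klf1 passed the filter through 1 library alone, so the counts cannot be set plainly against the shares that follow. Among all measured genes 8.16% were higher and 6.15% lower. The median log2 difference of these 9 was 0.69.
Klf9, a glucocorticoid-inducible factor, had 3.45 FPKM in the wild type library, 16.4 in gl/gl and 1.71 in the transgenic library, a log2 difference of 1.96 for gl/gl against wild type. Klf5, known from epithelial and myeloid cells, had 0.317, 4.65 and 0.168 FPKM, which makes it a gene seen at 1 FPKM in gl/gl alone. Klf7 had 5.57, 12.5 and 6.68 FPKM, and Klf15, another glucocorticoid-inducible gene, 0.239, 1.85 and 0.0391 FPKM.
Klf5 and Klf15 counted as measured through their gl/gl value alone, so that their highest value lies in gl/gl follows from the filter. Klf7 and Klf9 were highest in gl/gl too. Klf1, the erythroid factor, was the lower one, with 1.84, 0.218 and 0.192 FPKM. It counted as measured through its wild type value alone, so that its highest value lies there follows from the filter. Klf11, the close relative of Klf10, had nearly the same level in gl/gl and the transgenic library, 8.65 and 8.64 FPKM, against 4.97 in wild type. Klf1 and Klf16 also had similar levels in those libraries, but below wild type. Klf4 had 3.46, 5.78 and 2.84 FPKM, Klf8 1.43, 1.05 and 1.19 FPKM, and Klf16 14.5, 12.0 and 11.9 FPKM, all within 2-fold on the log2(FPKM + 1) scale in every comparison, although the Klf4 values of gl/gl and the transgenic library, as FPKM, lie at about that line.

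**Figure D3:**
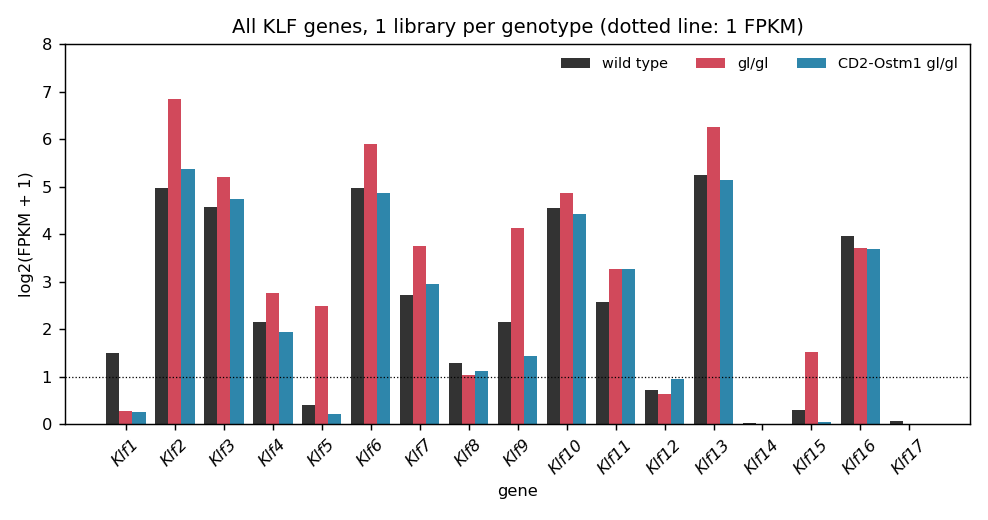
Levels of all 17 KLF genes as log2(FPKM + 1), 1 bar per library, with a dotted line at 1 FPKM. Klf2, Klf3, Klf6, Klf10 and Klf13 are the 5 tallest in each library. Klf5, Klf9 and Klf15 show gl/gl bars well above their own bars in the other libraries, although that of Klf15, at 1.85 FPKM, is itself low.

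Lists of related genes were described as well, and some genes stand in more than 1 of them. Their counts at 2-fold stand beside these shares of all 12849 measured genes. In gl/gl against wild type 8.16% were higher and 6.15% lower. In CD2-Ostm1 gl/gl against wild type the shares were 1.34% and 1.67%, and in CD2-Ostm1 gl/gl against gl/gl 6.47% and 9.82%. The sphingosine 1-phosphate pathway was mixed. Of its 15 other measured genes 2 reached 2-fold higher and 2 lower in gl/gl than in wild type, with a median of 0.22. With counts this small, neither was read as a departure from those shares. S1pr5, the receptor that natural killer cells use to leave tissues, had 0.379 FPKM in the wild type library, 3.90 in gl/gl and 0.757 in the transgenic library, and S1pr3 ran the other way with 3.68, 0.905 and 4.18 FPKM. The widest difference belonged to Spns2, an exporter of sphingosine 1-phosphate, with 33.3 FPKM in the wild type library, 2.42 in gl/gl and 36.3 in the transgenic library, a log2 difference of -3.33. So Spns2 lay in the opposite direction to S1pr1 and S1pr4 in gl/gl. S1pr5 counted as measured through its gl/gl value alone, so that its highest value lies in gl/gl follows from the filter. Cd69, whose protein removes S1PR1 from the cell surface, had 18.3, 46.3 and 25.2 FPKM, so the transcripts of S1pr1 and of its antagonist were both highest in gl/gl. S1pr2 had 5.94, 7.06 and 3.83 FPKM, within 2-fold throughout. In the transgenic library against gl/gl, 2 genes of this list were higher (Spns2 and S1pr3) and 2 lower (S1pr5 and Sgpp1, a phosphatase of the lipid).

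Among homing and trafficking genes, 2 of 10 were at least 2-fold higher in gl/gl than in wild type, Cd69 and the chemokine receptor gene Cxcr4 (77.1 FPKM in the wild type library, 174.9 in gl/gl and 73.0 in the transgenic library), and none was lower (median 0.59). Known FOXO1 target genes in this list differed in their order of libraries. Ccr7, the lymph node homing receptor, had 24.3, 42.8 and 31.7 FPKM, in the order of S1pr1 and Foxo1. Il7r, the interleukin 7 receptor, had 182, 286 and 67.5 FPKM and was thereby the 1 gene of the list at 2-fold in CD2-Ostm1 gl/gl against wild type, with a log2 difference of -1.42. Against gl/gl, the transgenic library had Ccr9, a thymus homing receptor, higher (1.49) and Il7r and Cxcr4 lower (-2.07 and -1.25).

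FOXO regulators differed little and FOXO target genes more. In the PI3K, AKT and FOXO list 1 of 20 measured genes reached 2-fold higher and 1 lower in gl/gl than in wild type (median -0.02). The higher one was Sgk1, a kinase that acts on FOXO factors much as AKT does, with 10.8 FPKM in the wild type library, 30.3 in gl/gl and 7.09 in the transgenic library. The lower one was Skp2, the ubiquitin ligase subunit that targets FOXO1 and p27, with 8.50, 2.73 and 9.15 FPKM. Foxo4, the X-linked relative, had 14.9, 15.4 and 13.9 FPKM, near level across the libraries. The transgenic library against gl/gl had 1 higher (Skp2) and 2 lower (Sgk1 and Pik3cb).
Of 23 FOXO target genes 4 were at least 2-fold higher and 2 lower in gl/gl than in wild type (median 0.42): Trib1, Txnip, Bcl2l11 and Gadd45b against Rag2 and Rag1. Txnip, which restrains glucose uptake, had 166 FPKM in the wild type library, 461 in gl/gl and 179 in the transgenic library, and Bcl2l11, which encodes the pro-apoptotic protein BIM, had 15.2, 40.0 and 22.5 FPKM. The recombinase genes Rag1 and Rag2, which FOXO1 is known to support in lymphoid progenitors, had log2 differences of -2.19 and -2.35. The other 17 genes of the list were within 2-fold, on this scale, in gl/gl against wild type. In CD2-Ostm1 gl/gl against gl/gl 8 of 23 were lower and 2 higher, the latter being Rag2 and Rag1 again, and Il7r, Txnip, Trib1 and Gadd45a had the lowest log2 differences among these 8, from -2.07 for Il7r to -1.22 for Gadd45a.

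In the BTG and TOB family, Btg1 stood apart from Btg2. Btg1, which acts with Btg2 in keeping T cells quiescent, had 73.0 FPKM in the wild type library, 236 in gl/gl and 93.9 in the transgenic library, a log2 difference of 1.68. It was the 1 of 14 measured genes of its list at 2-fold in gl/gl against wild type, and likewise in the transgenic library against gl/gl (-1.32). The ratio of Btg1 to Btg2 was 0.792 in the wild type library, 1.78 in gl/gl and 1.38 in the transgenic library, so Btg2 was the more abundant in wild type and Btg1 in both others. The other measured genes of the list, Tob1, Tob2 and subunits and partners of CCR4-NOT, were within 2-fold and the list's median was -0.11.
Among 22 other quiescence genes 4 were at least 2-fold higher in gl/gl and none lower (median 0.26): Slfn4, Slfn1, Txnip and Slfn2. Slfn2, which is needed for T cell quiescence, had 94.1 FPKM in the wild type library, 230.2 in gl/gl and 66.6 in the transgenic library. Slfn4, a relative known from myeloid cells, had 2.03, 154 and 4.37 FPKM. Schlafen genes are close copies of each other and reads may be shared among them, which makes each value uncertain. In the transgenic library against gl/gl 6 of the 22 were lower and none higher, with Slfn4 at -4.85 and Slfn1 at -2.55. Cdkn1b, which encodes the cell cycle inhibitor p27, had 54.2, 103 and 45.4 FPKM, a log2 difference of 0.92 for gl/gl against wild type and -1.17 for the transgenic library against gl/gl.

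The list of KLF corepressors and TGF-beta signalling had no gene at least 2-fold higher and 1 of 14 lower in gl/gl, the histone deacetylase gene Hdac2 at -1.15 (67.5, 29.9 and 57.9 FPKM), and its median was -0.13. Proliferation genes were mostly lower in gl/gl. Of 19 measured, 11 were at least 2-fold lower in gl/gl than in wild type and none higher (median -1.09), led by Mcm3, Mcm6, Cdk4 and Mcm7. Mcm6, a subunit of the replicative helicase, had 190 FPKM in the wild type library, 63.0 in gl/gl and 166 in the transgenic library. Against gl/gl, the transgenic library had 8 of the 19 higher and 1 lower, the latter being Ccnd3, a G1 cyclin.

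**Figure D4:**
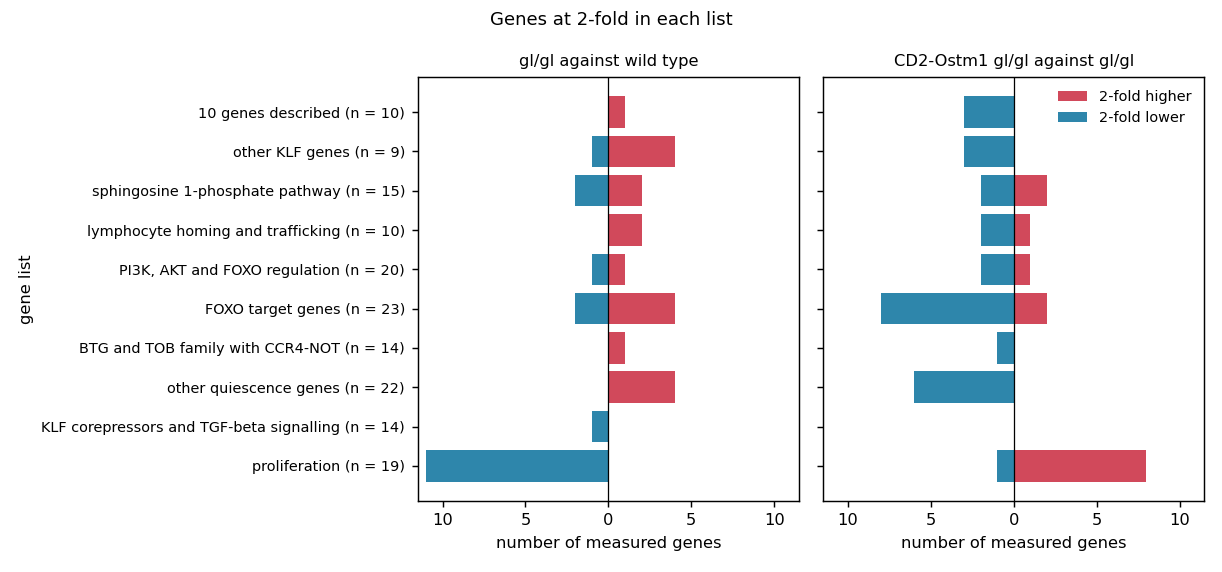
Number of measured genes at least 2-fold higher (to the right) or lower (to the left) in each gene list, for gl/gl against wild type and for CD2-Ostm1 gl/gl against gl/gl; n is the number of measured genes in the list. Proliferation has 11 genes to the left in the first panel and 8 to the right in the second, whereas the 10 genes described have 1 to the right and 3 to the left.

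Markers of other cells moved with these differences, and their part in them was not tested. For gl/gl against wild type the shares over all measured genes were again 8.16% higher and 6.15% lower. Granulocyte markers were at least 2-fold higher in gl/gl in 10 of 10 cases, with summed levels of 239, 28143 and 245 FPKM in the 3 libraries. Monocyte and macrophage markers were higher in 8 of 9, with sums of 208, 1554 and 171 FPKM. Markers of natural killer and innate lymphoid cells, which also express KLF2 and S1P receptors, were higher in 7 of 10, with sums of 527, 1117 and 344 FPKM, and B cell markers in 7 of 8, with sums of 55.1, 207 and 93.3 FPKM. None of these 4 lists had a marker listed at 0 in any library.
Early progenitor markers were lower in gl/gl in 10 of 10 cases, with sums of 589, 79.3 and 605 FPKM. The T lineage list had 4 of 12 lower and none higher, with a median of -0.01 (sums of 1128, 569 and 893 FPKM). Dntt alone held 462, 18.7 and 309 FPKM of these sums. Mature alpha-beta T cell markers had 2 of 9 lower, Cd8a and Cd8b1 (669, 663 and 495 FPKM), so their sums hardly differed between wild type and gl/gl. Gamma-delta markers had 1 of 3 lower, Sox13 (145, 117 and 110 FPKM). Dendritic cell markers had 1 of 9 higher, Siglech, and 1 lower, Flt3, with sums of 999.6, 1343 and 335 FPKM. Erythroid markers were lower in 4 of 4 (84.5, 19.1 and 50.7 FPKM), with Car1 listed at 0 in gl/gl. Mast cell markers were lower in 6 of 7 (182, 5.03 and 43.9 FPKM), and Tpsb2 and Fcer1a were listed at 0 in gl/gl.
In the transgenic library against wild type, the progenitor, granulocyte and monocyte lists each had 1 gene at 2-fold: Gata2 and C1qa were lower and Cxcr2 higher. That library also had 5 of 7 mast cell, 3 of 4 erythroid and 5 of 9 dendritic cell markers lower, with list medians of -3.58, -1.17 and -1.57. The erythroid markers counted here were Klf1, Gata1 and Car1, whose highest value lies in wild type by the filter. So it does for the mast cell markers counted here other than Mcpt2. The dendritic cell list had 1 marker higher, Siglech, with 6.20 FPKM in wild type and 19.0 in the transgenic library. Natural killer and innate lymphoid markers were lower in 3 of 10 (median -0.30), and B cell markers higher in 2 of 8 (median 0.92). The alpha-beta T cell and T lineage lists had no gene at 2-fold there, and the gamma-delta list had 1 of 3 lower.
Of 15 immediate-early and dissociation genes 1 was higher (Dusp1) and 2 lower (Jun and Ier3) in gl/gl than in wild type, with a median of 0.20. Glucocorticoid response genes were higher in 6 of 11 (median 1.15), with Klf9, Sgk1, Ddit4 and Dusp1 at the top, and Klf9 and Sgk1 are counted above as well. Whether the values of Klf2 or the other genes followed this response was not tested.

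Genes with the most similar pattern were named by the smallest distance between log2 differences from wild type, over 3 libraries and 9505 other genes at 5 FPKM or more. For Klf2 these were Kir3dl1, Adam19 and Cmpk2, at distances of 0.0404, 0.0592 and 0.0612, and Adam19, a metalloprotease, had 12.7, 48.5 and 17.9 FPKM. Kir3dl1 had 0.904, 5.92 and 1.59 FPKM, so it passed the filter of 5 FPKM through gl/gl alone, and its place rests on the pseudocount of 1, which narrows the difference of so low a gene. For S1pr1 they were Stard5, Whsc1l1 and Zfp513, at 0.0533 to 0.0596, and for Foxo1 they were Pml, Plxnb2 and Kctd18, at 0.0168 to 0.0376. Within a distance of 0.1 lay 7 genes for Klf2, 10 for S1pr1 and 48 for Foxo1, so with 3 libraries a close pattern was common for a small difference.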

How the data were processed

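The data were expression values of 3 libraries of sorted DN1 cells, 1 per genotype. Per the submitters' processing notes, the authors used TopHat2 (2.0.10) with Cuffdiff (2.2.1) on mm10; annotation, strand setting and scaling between libraries: not given in the sources used here. FPKM was taken as the unit of the deposited values because Cuffdiff writes it; the file header names none. The table held 23352 lines, of which 1 was empty and 3 had a cell that was no number. Starts count from 0 in the table and are given counted from 1.

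Differences were taken as log2(FPKM + 1) with Python 3.11.15 and pandas 2.3.3, and 2-fold on this scale was the threshold for a call. Without replicates no p-value was computed. Fragments were estimated from the spacing of low values of genes with 1 transcript over 1000 bases, with fragments of 200 bases assumed: on 1 kb, 1 fragment came to about 0.0212, 0.0335 and 0.0368 FPKM in the wild type, gl/gl and transgenic libraries. The longest coding transcript of GENCODE gave each gene's length, and intervals cover counting error only.

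The members and the 23 gene lists (292 entries, 8 without a line in the table) were chosen with earlier results of these data known. Named were the 10 genes, check genes, up to 4 genes at 2-fold per list by size of difference, all KLF genes and S1P receptors at 1 FPKM, and the 3 most similar patterns. Outside this rule, and with their values seen, were chosen Ccr7, Foxo4, Cdkn1b, Bcl2l11, Gadd45b, Cd3e, Cd8a, Cd8b1 and the MEF2 motif, and genes named to spell out a small count. Alternatives were other pseudocounts, filters, scalings and thresholds. A planned comparison of protein sequences was not made. Some genes that the rule names are not reported here.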

Additional observations from a re-analysis of the deposited data

How the results depend on the processing

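No result has a replicate, so which differences would recur in other pools is unknown; depth limited low genes, not the 10 described. Of 120 recomputed values of the 10 genes (2 other pseudocounts, 2 scalings), none changed direction. A pseudocount cannot change a direction, so only the values from the 2 scalings could have done so. Klf13 in gl/gl against wild type passed 2-fold with a pseudocount of 0.1 (1.01) and when libraries were scaled by the median gene ratio (1.07), so that 2 of the 10 genes were higher under either. S1pr4 in CD2-Ostm1 gl/gl against gl/gl passed under the same settings (-1.01 and -1.02). Klf6 there missed it with a pseudocount of 5 (-0.94) and at an equal upper quartile (-0.96). The medians of the 10 genes stayed between 0.65 and 0.80 for gl/gl against wild type, -0.11 and -0.04 for CD2-Ostm1 gl/gl against wild type, and -0.74 and -0.65 for CD2-Ostm1 gl/gl against gl/gl. The scalings moved the median of all genes by at most 0.0649.

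At 1.5-fold, 6 of the 10 were higher in gl/gl than in wild type and 5 lower in CD2-Ostm1 gl/gl than in gl/gl, and at 4-fold 0 and 0. Counts over all measured genes, given as higher and lower, moved with the pseudocount and the threshold. In gl/gl against wild type they were 520 and 347 with a pseudocount of 5, 2097 and 2073 at 1.5-fold, and 304 and 145 at 4-fold. In CD2-Ostm1 gl/gl against wild type they were 505 and 425 with a pseudocount of 0.1, 49 and 91 with one of 5, 672 and 548 at 1.5-fold, and 26 and 51 at 4-fold. In CD2-Ostm1 gl/gl against gl/gl, 1308 were higher with a pseudocount of 0.1; 297 and 633 passed with one of 5, 2160 and 2412 at 1.5-fold, and 155 and 333 at 4-fold. As reported they were 1048 and 790, 172 and 215, and 831 and 1262 in the 3 comparisons. No paired analysis was possible because each genotype has 1 library. Leaving out a library was not possible for the same reason.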
